A study of Rattus norvegicus with 192 samples.

Results

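Oxadiazon is an oxadiazole herbicide that inhibits protoporphyrinogen oxidase (Ppox), the enzyme that turns protoporphyrinogen into protoporphyrin one step before iron is inserted to make heme. The 6 libraries whose titles name oxadiazon were chosen, out of 192 libraries in the series, and they hold 1 library at each of 0.4, 1.2, 3.7, 11.1, 33.3 and 100 µM. In liver, heme is made mainly for the cytochrome P450 enzymes, and its first and rate-limiting enzyme, Alas1, is repressed by heme and induced together with P450 genes by many foreign chemicals. Such chemicals commonly act through the receptors CAR and PXR, which switch on P450, glucuronosyltransferase and glutathione transferase genes, whereas PPARα controls the burning of fatty acids and the making of ketone bodies.

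The cells were primary hepatocytes of male rats, plated on collagen and exposed for 24 h, with the solvent DMSO at 0.1%. All 6 oxadiazon libraries came from plate 2, and they were set against 8 DMSO libraries, replicates 2 to 9, of which 2 came from plate 1, 3 from plate 2 and 3 from plate 3. DMSO replicate 1 is an outlier library and was left out by the rule that defines the dose series. The assay was TempO-Seq, in which pairs of detector oligonucleotides are ligated on their target transcript, amplified and counted, so that each probe reads one short stretch of a gene. No label gives the strain or age of the rats or names a culture or animal for each well. A p-value here is therefore set by library-to-library spread alone, and part or all of it can be technical.

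Total counts were 1724893 to 6908616 in the oxadiazon libraries, with the 11.1 µM library the shallowest, and 2876741 to 8513985 in the DMSO libraries. The hepatocyte label was borne out by its markers: 12 hepatocyte markers summed to 22080 to 38506 CPM (counts scaled to one common library total) with oxadiazon, lowest at 100 µM, and to 31471 to 53537 CPM with DMSO. Macrophage markers summed to 129 to 159 CPM with oxadiazon and 113 to 157 CPM with DMSO, with Adgre1 and Ptprc under 1 CPM. Endothelial markers summed to 15.7 to 32.2 CPM with oxadiazon, highest at 100 µM, and 16.1 to 23.7 CPM with DMSO. Bile duct markers summed to 37.4 to 52.2 CPM with oxadiazon and 25.4 to 54.0 CPM with DMSO, with Krt7 and Cftr at 0. Stellate and mesenchymal markers summed to 154 to 277 CPM with oxadiazon, lowest at 100 µM, and 214 to 280 CPM with DMSO, with Col1a1 at 0. In bulk samples fewer cells of a type and less RNA per cell cannot be told apart.

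Among the oxadiazon libraries the departure from DMSO was largest at 100 µM. There, 536 of 11055 tested probes (4.85%) lay at least 2-fold from the mean of DMSO and outside the DMSO range, 137 higher and 399 lower. The libraries at 0.4, 1.2, 3.7, 11.1 and 33.3 µM had 2 (0.0181%), 29 (0.262%), 9 (0.0814%), 113 (1.02%) and 37 (0.335%) such probes. DMSO replicates 2 to 9, each set against the other 7, had 13 (0.118%), 35 (0.317%), 4 (0.0362%), 1296 (11.7%), 2 (0.0181%), 37 (0.335%), 6 (0.0543%) and 58 (0.525%). The count of 113 at 11.1 µM came with the lowest depth of the series, and fell to 19 when 5 CPM in place of 2 CPM was added before taking logs, against 330 at 100 µM. DMSO replicate 5, with 1296, stood apart from the other controls and had more such probes than the 100 µM library, so that the 536 lie outside the range of the controls when that library is set aside. Without it the counts were 13 (0.118%), 19 (0.172%), 12 (0.109%), 162 (1.47%), 43 (0.389%) and 583 (5.27%) from 0.4 to 100 µM. In DMSO replicates 2, 3, 4, 6, 7, 8 and 9 they were then 20 (0.181%), 1 (0.00905%), 6 (0.0543%), 0 (0%), 98 (0.886%), 3 (0.0271%) and 27 (0.244%).

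**Figure D1:**
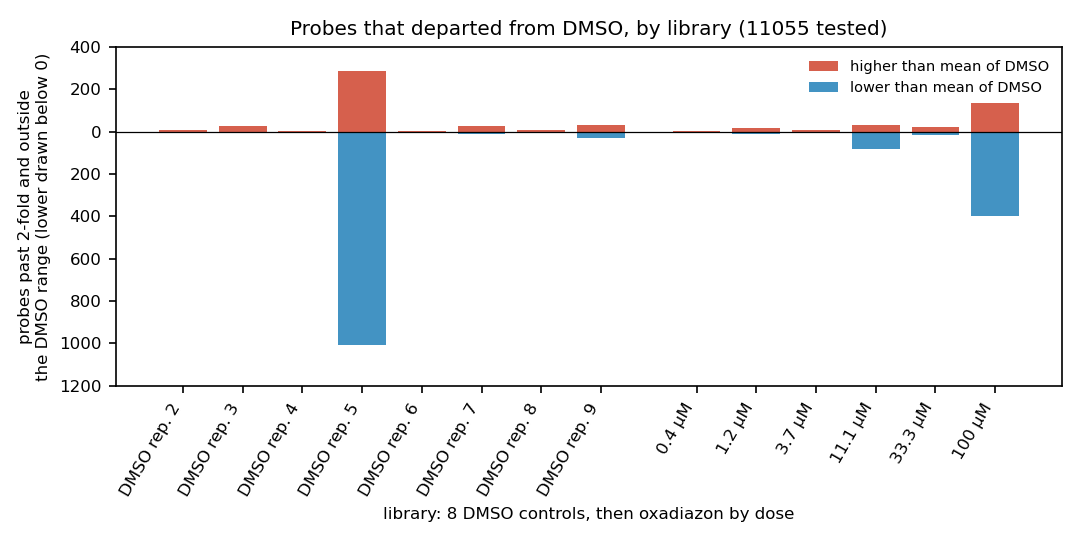
Number of probes at least 2-fold from the mean of DMSO and outside the DMSO range, for each of 8 DMSO libraries (set against the other 7) and each oxadiazon library, with higher probes above and lower probes below 0. The 100 µM library has 137 higher and 399 lower probes, and DMSO replicate 5 has 1296 in all.

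Few probes passed 4-fold below 100 µM, and most of those were drug metabolism genes. They numbered 0 at 0.4 and 1.2 µM, 2 at 3.7 µM (Cyp1a1 and Cyp2b2), 2 at 11.1 µM (Ugt2b1 and Cyp2b2) and 7 at 33.3 µM. The 7 were Ugt2b10, Ugt2b1, Cyp3a23/3a1, Cyp3a1, Cyp1a1, Cyp2b2 and LOC102551744, a locus without an assigned role that is named here after its values were seen. At 100 µM 47 probes passed 4-fold, 5 higher and 42 lower.

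Across the series, 147 of 11055 probes (1.33%) followed dose, 54 higher (0.488%) and 93 lower (0.841%). The test was edgeR's quasi-likelihood F test on log2(1 + dose) with plate as a factor and a Benjamini-Hochberg adjusted p under 0.05, and 1607 probes had an unadjusted p under 0.05. Because all oxadiazon libraries are on plate 2, plate as a factor ties the fitted changes to the 3 controls of that plate. These are DMSO replicates 4, 5 and 6, and the controls of plates 1 and 3 inform the estimate of spread. Fold changes below that carry an SE are the fitted log2 change at 100 µM from this test. The exceptions are differences from other chemicals, which come from a separate fit. Of the 54 higher probes 43 had their highest level at 100 µM and 11 at 33.3 µM, whereas 90 of the 93 lower probes had their lowest level at 100 µM. Lower probes left the DMSO range and stayed outside it from 0.4 µM (5 probes), 1.2 µM (4), 3.7 µM (11), 11.1 µM (33), 33.3 µM (27) or 100 µM (13). Higher probes did so from 0.4 µM (1 probe), 1.2 µM (2), 3.7 µM (7), 11.1 µM (9), 33.3 µM (18) or 100 µM (17). The count of calls rests strongly on single libraries: it was 19 without the 100 µM library, 75 without 0.4 µM and 225 without 33.3 µM. It was 95, 95, 68 and 74 without DMSO replicates 2, 3, 4 and 8, and 499 (4.51%), which include the 147, without DMSO replicate 5, 220 higher (1.99%) and 279 lower (2.52%). Against the 3 controls of the same plate alone, replicates 4, 5 and 6, 17 probes were called.

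None of the tested genes of heme synthesis, the pathway that oxadiazon blocks in its target organisms, was called in the dose trend. The list has 9 genes, each with a probe, of which 8 were abundant enough to test and 0 were called. Of all tested probes 1.33% were called, so 0 calls in a list of 8 carries little weight. The list had 1 positive and 7 negative fitted changes and a median of -0.21, beside -0.02 over the 11055 tested probes. Ppox itself ranged over 14.8 to 22.5 CPM in DMSO (median 18.9) and stood at 16.3, 14.1, 22.6, 24.9, 16.9 and 16.4 CPM from 0.4 to 100 µM. The fitted change of Ppox was -0.04 ± 0.27 (adjusted p = 0.976), and its levels at 1.2 µM and at 3.7 and 11.1 µM lay just below and just above the DMSO range. Fech, which inserts the iron, changed by -0.00 ± 0.24 and Cpox, the enzyme before Ppox, by -0.39 ± 0.18 (adjusted p = 0.998 and 0.334).

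Alas1 gave a curve that the straight dose score fits poorly. It ranged over 137 to 251 CPM in DMSO (median 165) and stood at 187, 166, 226, 263, 311 and 184 CPM from 0.4 to 100 µM. The levels at 11.1 and 33.3 µM lay above every DMSO library, while the level at 100 µM lay inside the DMSO range. Over the 6 doses the fitted change was 0.38 ± 0.29 (adjusted p = 0.596), and 0.92 (adjusted p = 0.729) without the 100 µM library. With both the 100 µM library and DMSO replicate 5 left out it was 1.29 (adjusted p = 0.00346), in a fit chosen after the data were seen. In DMSO replicate 5 Alas1 was at 251 CPM, the highest of the controls, and the other 7 spanned 137 to 203 CPM.

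Other enzymes between Alas1 and Cpox kept within or close to the DMSO range. Alad was at 5.10 to 12 CPM with oxadiazon and 5.11 to 16.0 CPM with DMSO. Uros was at 3.48 to 7.28 CPM with oxadiazon and 2.57 to 7.65 CPM with DMSO, and Urod at 27.4 to 43.1 CPM with oxadiazon and 19.7 to 79.6 CPM with DMSO. The highest control of Urod was DMSO replicate 5, and the spread of these scarce probes between controls limits what could be detected in them. Hmox1, which breaks heme down, ranged over 241 to 595 CPM in DMSO (median 310.3) and stood at 473, 536, 469, 600.0, 646 and 281 CPM from 0.4 to 100 µM. Its fitted change was 0.51 ± 0.41 (adjusted p = 0.63), and at 11.1 and 33.3 µM it lay above the highest control, DMSO replicate 9. Of 14 tested genes of heme breakdown, binding and transport 0 were called, where 1.33% of all tested probes were, and the median was 0.12. Without DMSO replicate 5, where 2.52% of all tested probes fell, 2 of the list were called lower. These were the heme-binding plasma protein Hpx, at -0.80 (adjusted p = 0.0156), and Fabp1, a fatty acid and heme binding protein, at -1.17 (adjusted p = 0.00629).

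**Figure D2:**
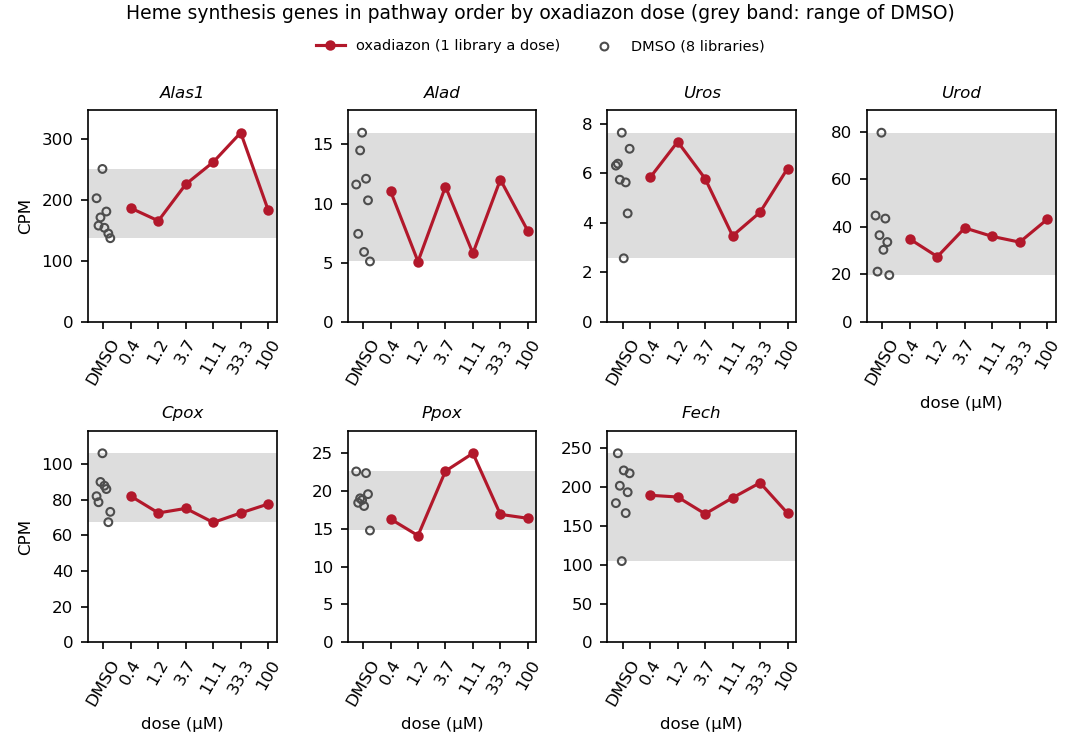
CPM of 7 heme synthesis genes in pathway order, for 8 DMSO libraries (open circles, grey band for their range) and oxadiazon at 6 doses (red, 1 library a dose). Alas1 climbs to 311 CPM at 33.3 µM and returns to 184 CPM at 100 µM, while Ppox stays between 14.1 and 24.9 CPM.

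Some drug metabolism genes rose, and the levels of most of these peaked below the highest dose. Of 24 tested entries on a list of CAR and PXR induced genes (36 symbols, 25 with a probe) 6 rose and 0 fell, and the median fitted change was 0.43, with 17 positive and 7 negative. The 6 were Ugt2b1, Ugt2b10, Cyp3a23/3a1, Cyp3a1, Gsta2 and Gadd45b, the last named after its values were seen. Entries are the file's symbols, and Cyp3a1 and Cyp3a23/3a1 read 1 gene, so the 6 stand for 5 genes. Without DMSO replicate 5 the same 6 were called higher, and Cyp3a9 and Cyp2b3, also named after their values were seen, were called lower, at -0.84 and -0.93. Over all tested probes 0.488% rose and 0.841% fell, or 1.99% and 2.52% without DMSO replicate 5. Those shares are the background of every list count given here. The common course was a climb from 3.7 µM to a peak at 33.3 µM and a lower level at 100 µM, except in Gadd45b, which peaked at 100 µM. The median of the list, as a difference in log2(CPM + 2) from the mean of DMSO, was 0.02, 0.11, 0.28, 0.40, 0.57 and 0.02 from 0.4 to 100 µM, and single DMSO libraries had medians of -0.30 to 0.23.

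The promoters of 2 of these genes are shown because Cyp3a23/3a1 carries the repeat that is the textbook binding element of PXR and the other does not. The file's symbols Cyp3a1 and Cyp3a23/3a1 are synonyms of 1 RefSeq gene, Cyp3a23-3a1, so they are a pair of probes of 1 gene. Each sequence runs 5′ to 3′ along the gene's own strand from 250 bases before to 50 after the start site, as given by RefSeq for build GRCr8, with the matched letters in capitals.
Cyp3a23-3a1, chr12:14398754-14399053, minus strand: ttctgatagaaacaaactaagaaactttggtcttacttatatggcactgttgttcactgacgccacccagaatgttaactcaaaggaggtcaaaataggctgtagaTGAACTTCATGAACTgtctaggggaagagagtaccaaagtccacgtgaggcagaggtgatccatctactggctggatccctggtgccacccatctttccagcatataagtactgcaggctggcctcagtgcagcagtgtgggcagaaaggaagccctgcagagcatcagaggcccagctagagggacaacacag
Ugt2b1, chr14:21378632-21378931, plus strand: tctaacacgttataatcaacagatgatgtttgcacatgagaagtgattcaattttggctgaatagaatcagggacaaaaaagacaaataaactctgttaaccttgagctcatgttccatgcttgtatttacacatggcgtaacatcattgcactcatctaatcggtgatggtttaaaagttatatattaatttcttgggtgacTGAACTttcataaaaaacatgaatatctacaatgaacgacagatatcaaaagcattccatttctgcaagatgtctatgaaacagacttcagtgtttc
The Cyp3a23-3a1 window holds 2 copies of the hexamer TGAACT in the same direction, spaced by 3 bases, at 144 to 130 bases before the start. Searched on both strands, that motif occurs in 2 of 33469 promoter windows (0.00598%), and in 1 of the 46 windows found for the 54 higher symbols. A single hexamer TGAACT, as in Ugt2b1 at 47 to 42 bases before the start, occurs in 4844 windows (14.5%), in 5 of 46 windows of higher genes (10.9%) and in 13 of 70 windows of lower genes (18.6%). The same repeat spaced by 4 bases, and TGAACT followed after 6 bases by its reverse complement AGTTCA, which both contain the hexamer, occur in 4 and 0 of all windows and in 0 windows of called genes. These matches are a description of letters near the start sites.

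Ugt2b10 and Ugt2b1 encode glucuronosyltransferases, which attach glucuronic acid to drugs and steroids. Ugt2b10 ranged over 190.4 to 348 CPM in DMSO (median 244) and stood at 284, 368, 735, 991, 1583 and 843 CPM from 0.4 to 100 µM. From 1.2 µM on, every dose lay above every DMSO library, and the fitted change was 2.60 ± 0.37 (adjusted p = 0.00475). At 33.3 µM the level of Ugt2b10 was 6.12 times the mean of DMSO (259 ± 57.5 CPM, SD, n = 8). Ugt2b1 followed the same course, at 42.1 to 83.7 CPM in DMSO (median 52.4) and 55.3, 85.7, 175, 248, 350.4 and 178 CPM from 0.4 to 100 µM. Its fitted change was 2.73 ± 0.43 (adjusted p = 0.00888), and it too lay above the controls from 1.2 µM on. Close relatives among the Ugt2b, Cyp3a, Cyp2b, Cyp2c and Gsta genes may share probe sequence, so the identity of single members is uncertain.

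Both Cyp3a probes, which read the P450 best known as a PXR target, rose. Cyp3a1 ranged over 366 to 552 CPM in DMSO (median 471) and stood at 506, 509.7, 693, 1197, 2544 and 841 CPM from 0.4 to 100 µM. Cyp3a23/3a1, a less abundant probe, ranged over 13.2 to 30.4 CPM in DMSO (median 20.9) and stood at 21.1, 21.1, 48.6, 70.1, 130.4 and 47.6 CPM. From 3.7 µM on both lay above every control, with fitted changes of 2.07 ± 0.40 for Cyp3a1 (adjusted p = 0.019) and 2.57 ± 0.45 for Cyp3a23/3a1 (adjusted p = 0.0118). Without the 33.3 µM library the changes of both missed the threshold. Cyp3a2, a male-type P450 of the same family, reached 858 CPM at 33.3 µM, against 389 to 516 CPM in DMSO, and its fitted change was 0.53 ± 0.22 (adjusted p = 0.26).

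Gsta2, a glutathione transferase of the CAR, PXR and NRF2 gene lists, ranged over 207 to 279.5 CPM in DMSO (median 237) and stood at 250.5, 229.9, 333, 487, 732 and 484 CPM from 0.4 to 100 µM. It lay above every control from 3.7 µM on, and its fitted change was 1.49 ± 0.23 (adjusted p = 0.00888). Its neighbour in name, Gsta50.81, printed as the file gives it and named after its values were seen, reached 95.8 CPM at 33.3 µM, against 29.0 to 40.2 CPM in DMSO, with a change of 1.25 ± 0.25 (adjusted p = 0.0245). Cyp2c24, a P450 of the Cyp2c family, stood at 8.55, 9.22, 16.6, 31.9, 43.9 and 21.6 CPM from 0.4 to 100 µM over a DMSO range of 5.48 to 16.4 CPM. Its change was 2.12 ± 0.43 (adjusted p = 0.0236), which missed the threshold without the 0.4 or the 33.3 µM library.

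Cyp2b2, the classic phenobarbital-inducible P450 that CAR controls, was near the detection limit in controls, at 0.695 to 3.26 CPM (median 1.64). It stood at 2.29, 0.243, 13.8, 42.3, 31.9 and 1.98 CPM from 0.4 to 100 µM. The 3 middle-to-high doses lay above every control and the 100 µM library lay back inside their range. Because of that return the fitted change was 4.10 ± 1.38 with an adjusted p of 0.158, and without the 100 µM library it was 6.82 (adjusted p = 0.00821). The fold rests on a few counts in controls and is imprecise.

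Much of this response did not depend on the 100 µM library. With it left out, the fitted changes, still expressed at 100 µM, were then 3.55 for Ugt2b10, 3.82 for Ugt2b1, 2.98 for Cyp3a1, 3.71 for Cyp3a23/3a1, 2.03 for Gsta2 and 1.08 for Cyp3a2 (adjusted p at most 0.00790). As in every fit here without the 100 µM library, these values extend the line past 33.3 µM, the highest dose then fitted. The levels of these genes measured at 100 µM were lower than those at 33.3 µM. Of the 24 list entries 7 were then among the 19 calls, all 7 higher, and 10 were called higher with DMSO replicate 5 also left out. Without the 33.3 µM library the list had 3 called higher. Against the 3 plate 2 controls alone it also had 3, with Ugt2b1 at 2.74 and Ugt2b10 at 2.61 (adjusted p = 0.0479 and 0.0319). Those changes are close to the main ones by design, because with plate as a factor the main fit rests on the same 3 controls.

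Cyp1a1, the P450 most closely tied to the receptor AhR, took another shape. It ranged over 0 to 3.40 CPM in DMSO (median 1.15) and stood at 1.67, 7.04, 10.6, 10.4, 10.97 and 14.6 CPM from 0.4 to 100 µM. Every dose from 1.2 µM on lay above every control, on a plateau and with no return at 100 µM. The fitted change was 3.13 ± 0.77 (adjusted p = 0.056), and 2.74 (adjusted p = 0.0273) without DMSO replicate 5, in which Cyp1a1 was at 0. Cyp1a2, another AhR target, changed by 0.25 ± 0.44 (adjusted p = 0.871), and of 4 tested AhR induced genes 0 were called, or 2 without DMSO replicate 5.

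**Figure D3:**
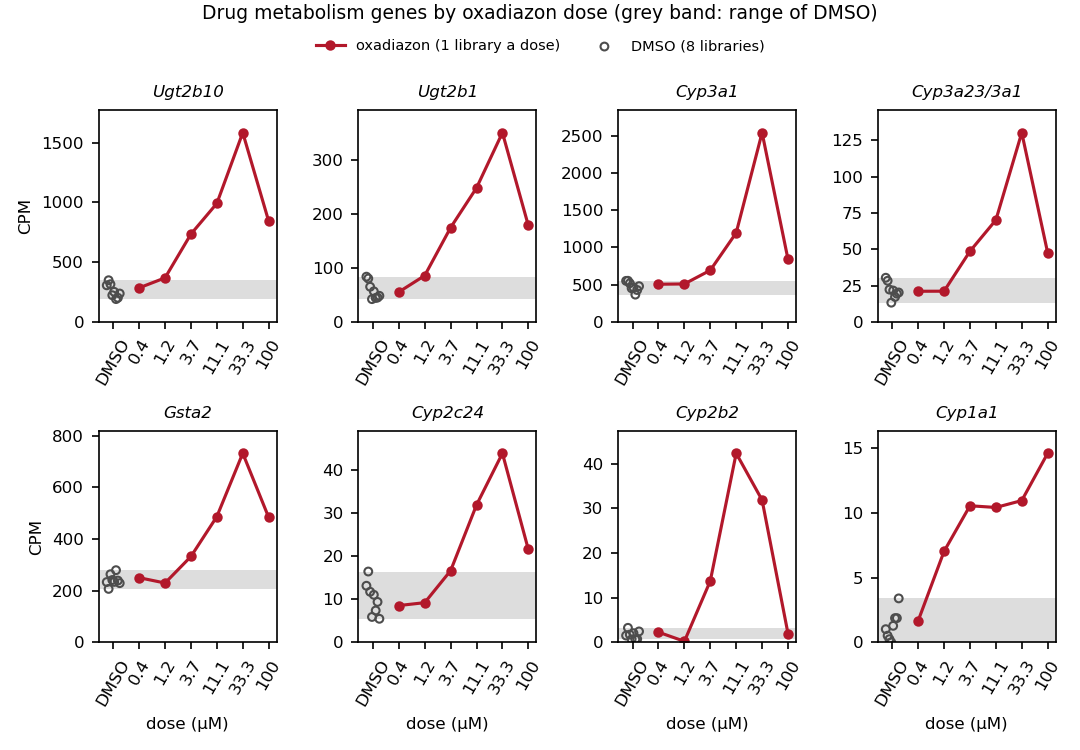
CPM of 8 drug metabolism probes in 8 DMSO libraries (open circles, grey band for their range) and in oxadiazon libraries by dose (red, 1 library a dose). Ugt2b10, Ugt2b1, the pair of Cyp3a probes, Gsta2 and Cyp2c24 peak at 33.3 µM, Cyp2b2 peaks at 11.1 µM, and Cyp1a1 is highest at 100 µM.

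Some genes of fatty acid use fell with dose. Of 38 tested genes on a list of PPARα induced genes (47 genes, 39 with a probe) 10 fell and 0 rose, and the median fitted change was -0.75, with 33 negative and 5 positive. Among the 10 were Cd36, Ech1, Fgf21, Hadh, Cpt1a, Eci1, Etfdh, Plin2 and Acadm, of which Cpt1a, Eci1, Etfdh and Acadm are named after their values were seen. The median difference of the list from DMSO in log2(CPM + 2) was -0.02, -0.12, -0.10, -0.20, -0.32 and -0.89 from 0.4 to 100 µM, and -0.06 to 0.11 in single DMSO libraries. The count of 10 was 2 without the 100 µM library, 5 without 0.4 µM and 6 without 3.7 µM. It was 18 without DMSO replicate 5, 6 without replicate 2, 3, 4 or 6, and 5 without replicate 8. Over all tested probes 0.841% fell, or 2.52% without DMSO replicate 5.

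Cd36, the receptor that takes up long-chain fatty acids, gave the most even decline. It ranged over 111 to 171 CPM in DMSO (median 132) and stood at 113, 97.1, 83.7, 63.8, 55.9 and 28.5 CPM from 0.4 to 100 µM. From 1.2 µM on every dose lay below every control, each lower than the dose before. The fitted change was -2.14 ± 0.19 (adjusted p = 4.64e-05), and it stayed called under each of the alternatives tried, at -2.35 to -1.62.

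Ech1, an auxiliary enzyme in the breakdown of unsaturated fatty acids, ranged over 149 to 197 CPM in DMSO (median 185) and stood at 191, 185, 158, 115, 111 and 67.9 CPM from 0.4 to 100 µM. The 3 highest doses lay below every control, with a change of -1.30 ± 0.18 (adjusted p = 0.00387), or -0.98 (adjusted p = 0.0825) without the 100 µM library.

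The other falling members covered entry, oxidation and storage of fatty acids. Cpt1a, which carries fatty acids into mitochondria, was at 8.18 CPM at 100 µM, against 12.9 to 26.5 CPM in DMSO (-1.32 ± 0.27, adjusted p = 0.0266). Acadm, the medium-chain acyl-CoA dehydrogenase, was at 161 CPM at 100 µM, against 246 to 486 CPM in DMSO (-1.11 ± 0.25, adjusted p = 0.0369). Hadh, a later enzyme of the cycle, was at 8.68 CPM at 100 µM, against 20.6 to 36.2 CPM in DMSO (-1.40 ± 0.30, adjusted p = 0.032). Eci1 and Etfdh, an isomerase and an electron carrier of the same pathway, changed by -1.24 ± 0.29 and -1.18 ± 0.28 (adjusted p = 0.0497 and 0.0489). Plin2, a coat protein of lipid droplets, was at 295 CPM at 100 µM, against 663 to 860.0 CPM in DMSO (-1.13 ± 0.22, adjusted p = 0.0183). The calls of Hadh and Plin2 were lost in 11 and 7 of 26 alternatives, in both without the 100 µM library.

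Some members with strong ties to PPARα did not pass the test. Cyp4a1 stood at 27.4 to 42.9 CPM with oxadiazon and 34.8 to 56.4 CPM with DMSO (-0.55 ± 0.24, adjusted p = 0.307). Pdk4 and Ehhadh changed by -0.78 ± 0.31 and -0.64 ± 0.52 (adjusted p = 0.247 and 0.638). Cyp4a2 has 3 probes, named after their values were seen: 1 was called at -1.87 ± 0.40 (adjusted p = 0.032), and the most abundant one, which stands for the gene in the list, was at -1.67 ± 0.48 (adjusted p = 0.0956). Outside the list, Hsd17b13, a lipid droplet protein of liver that is named after its values were seen, ranged over 153 to 199.6 CPM in DMSO (median 186) and stood at 168, 169, 133, 128, 103 and 60.5 CPM from 0.4 to 100 µM. It lay below the controls from 3.7 µM on (-1.41 ± 0.19, adjusted p = 0.00387). Of 18 tested genes of fatty acid and triglyceride synthesis 2 fell and 0 rose, with a median of -0.09, and 5 fell without DMSO replicate 5. The 2 were Acly and Acaca, which make fatty acids and fell by 1.03 ± 0.20 and 1.15 ± 0.27 on the log2 scale (adjusted p = 0.0204 and 0.0476). The calls were lost in 7 of 26 alternatives for Acly and 18 of 26 for Acaca, in both without the 100 µM library.

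Fgf21, a hormone gene that both PPARα and the integrated stress response can switch on, fell. It ranged over 26.7 to 42.8 CPM in DMSO (median 30.7) and stood at 26.5, 27.4, 29.8, 22.6, 12.4 and 13.4 CPM from 0.4 to 100 µM, below every control from 11.1 µM on. The fitted change was -1.48 ± 0.29 (adjusted p = 0.0199), which missed the threshold without the 33.3 or the 100 µM library. Its promoter is shown with that of Hsd17b13 because they are the 2 windows among the called genes that hold TGATGCAAT, in capitals below, the composite site read by stress-induced C/EBP and ATF factors.
Fgf21, chr1:105221327-105221626, minus strand: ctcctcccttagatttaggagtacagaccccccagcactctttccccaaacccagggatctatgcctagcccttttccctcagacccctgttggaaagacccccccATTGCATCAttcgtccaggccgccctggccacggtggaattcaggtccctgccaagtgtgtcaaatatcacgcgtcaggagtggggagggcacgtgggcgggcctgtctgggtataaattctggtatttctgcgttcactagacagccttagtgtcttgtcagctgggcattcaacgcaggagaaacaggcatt
Hsd17b13, chr14:6056539-6056838, plus strand: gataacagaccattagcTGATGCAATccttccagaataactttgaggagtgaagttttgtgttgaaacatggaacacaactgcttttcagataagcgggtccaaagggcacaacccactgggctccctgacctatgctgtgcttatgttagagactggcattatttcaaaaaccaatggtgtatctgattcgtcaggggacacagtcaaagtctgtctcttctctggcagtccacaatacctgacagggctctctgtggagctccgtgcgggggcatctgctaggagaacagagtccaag
In Fgf21 the match lies 144 to 136 bases before the start and reads on the opposite strand, and in Hsd17b13 it lies 233 to 225 bases before it. Over all windows TGATGCAAT occurs in 63 of 33469 (0.188%), in 0 of 46 windows of higher genes and in 2 of 70 windows of lower genes (2.86%). The PPARα repeat, 2 copies of AGGTCA spaced by 1 base, occurs in 18 windows (0.0538%) and in 0 windows of called genes, of which Ech1 has no window in the table.

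**Figure D4:**
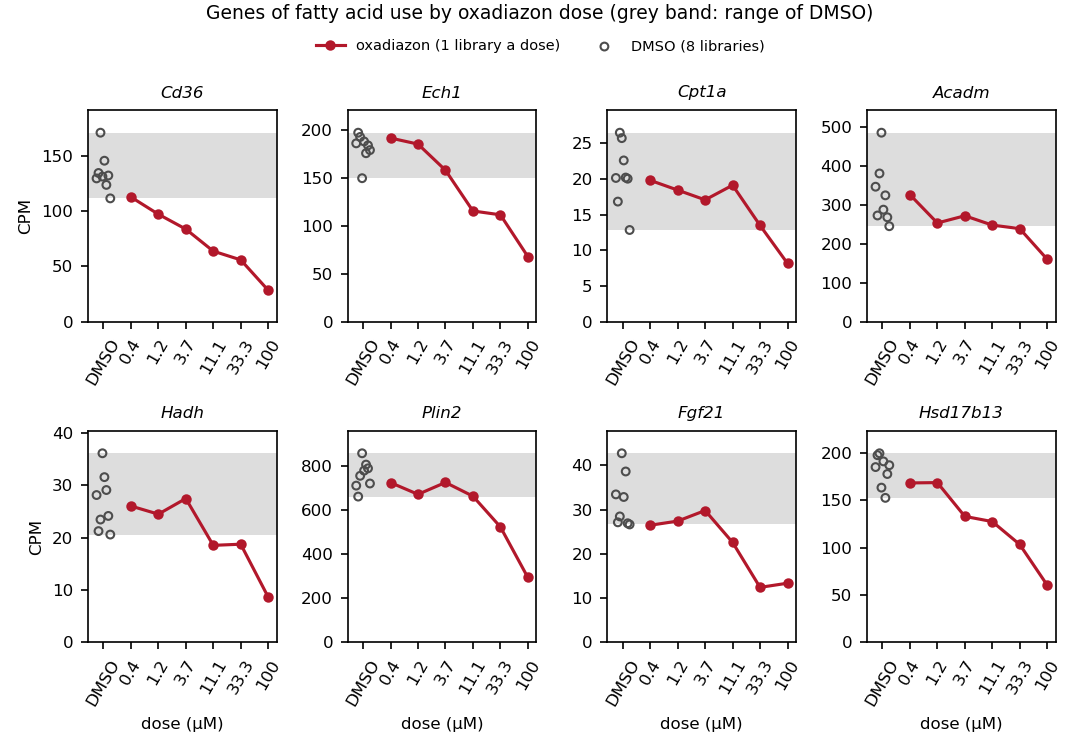
CPM of 8 genes of fatty acid use and storage in 8 DMSO libraries (open circles, grey band for their range) and in oxadiazon libraries by dose (red, 1 library a dose). Cd36 declines from 113 CPM at 0.4 µM to 28.5 CPM at 100 µM, and Ech1 from 191 to 67.9 CPM.

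A few stress genes rose, with their highest levels at 100 µM. Ddit3 (CHOP), a transcription factor induced by the integrated stress response, ranged over 43.5 to 79.4 CPM in DMSO (median 63.2) and stood at 64.7, 68.2, 72.2, 54.5, 58.9 and 409 CPM from 0.4 to 100 µM. Its 5 lower doses lay inside the DMSO range and its 100 µM level was 6.53 times the mean of DMSO (2.21 ± 0.38, adjusted p = 0.0103). Without the 100 µM library its change was 0.15 (adjusted p = 0.999). Ppp1r15a, the phosphatase subunit that ends the response, was at 212 CPM at 100 µM, against 74.4 to 122 CPM in DMSO (0.87 ± 0.21, adjusted p = 0.0476). That call of Ppp1r15a was lost in 16 of 26 alternatives, among them without the 100 µM library (0.43, adjusted p = 0.999) and without any one DMSO library other than replicate 5.

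Of 25 tested genes of the integrated stress response 2 rose and 1, Fgf21, fell, with a median of 0.38, 21 positive and 4 negative, and 6 rose without DMSO replicate 5. Over all tested probes 0.488% rose and 0.841% fell, and 1.99% rose without that control. The median difference of the list from DMSO was 0.07, -0.03, 0.11, 0.10, 0.08 and 0.58 from 0.4 to 100 µM, beside -0.09 to 0.16 in single DMSO libraries. Genes for chaperones of the endoplasmic reticulum did not share that course, with a median at 100 µM of -0.41 and 0 of 14 called, or 2 lower without DMSO replicate 5. Hsp90b1, their most abundant named member, was at 1375 CPM at 100 µM, against 2454 to 4213 CPM in DMSO (-1.004 ± 0.24, adjusted p = 0.0506), or -0.79 (adjusted p = 0.0323) without DMSO replicate 5. Edem1, which helps to clear misfolded proteins, was at 45.6 CPM at 100 µM, against 119 to 157 CPM in DMSO (-1.05 ± 0.34, adjusted p = 0.142). Of 12 cytosolic heat shock genes 0 were called, with Hspb1 at 323 CPM at 100 µM, against 149.6 to 248 CPM in DMSO (0.47 ± 0.22, adjusted p = 0.33). Replicate 5 was the highest control, and without it Hspb1 was called, at 0.70 (adjusted p = 0.022), as the single call of that list.

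Several other genes with no list in common rose and had their highest level at 100 µM. Csrp3, a muscle LIM-domain protein that is scarce in control hepatocytes, ranged over 3.65 to 10.7 CPM in DMSO (median 6.99) and stood at 6.26, 4.13, 6.08, 6.38, 13.1 and 89.0 CPM from 0.4 to 100 µM. The 33.3 µM library lay just above the controls and the 100 µM library at 13.1 times their mean (3.40 ± 0.49, adjusted p = 0.00485). Sdcbp2, a scaffold protein of the syntenin family, was at 95.4 CPM at 100 µM, against 4.52 to 20.8 CPM in DMSO (2.59 ± 0.36, adjusted p = 0.00387). Tspan13, a tetraspanin, was at 21.1 CPM at 100 µM, against 2.31 to 5.21 CPM in DMSO (2.45 ± 0.40, adjusted p = 0.00888). Cd44, a hyaluronan receptor, and Runx1, a transcription factor, changed by 2.47 ± 0.59 and 1.86 ± 0.43 (adjusted p = 0.0489 and 0.0427). Fosl1, an AP-1 factor named after its values were seen, stood at 83.1 and 162 CPM at 33.3 and 100 µM, against 28.2 to 53.1 CPM in DMSO (1.82 ± 0.25, adjusted p = 0.00387). The calls of Csrp3, Sdcbp2, Tspan13, Cd44 and Runx1 were lost without the 100 µM library, and those of Cd44 and Runx1 also without any one of several other libraries.

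Lcn2 rose in step with dose. This secreted protein binds bacterial iron carriers and is an acute phase gene of liver. It ranged over 486 to 752 CPM in DMSO (median 638) and stood at 661, 729, 753, 824, 1040.2 and 1098 CPM from 0.4 to 100 µM, each dose higher than the one before. The fitted change was 0.87 ± 0.14 (adjusted p = 0.00888), and 0.997 (adjusted p = 0.0227) without the 100 µM library. No other of the 23 tested acute phase genes was called. Without DMSO replicate 5, 3 were called higher and 3 lower, among them Cebpd at 0.77 and Cp, the copper protein ceruloplasmin, at -1.15 (adjusted p = 0.0378 and 0.0094). Hp, the hemoglobin-binding haptoglobin, changed by -1.39 ± 0.40 (adjusted p = 0.0967). Tf and Tfrc, which carry and take up iron, were at 804 and 151 CPM at 100 µM, against 3142 to 3730.2 CPM and 282 to 383 CPM in DMSO, and missed the threshold (adjusted p = 0.104 and 0.156).

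Some genes of sugar, amino acid and urea metabolism were called lower in the dose trend. Of 21 tested genes of gluconeogenesis and glycolysis 4 fell and 0 rose, with a median of -0.76, where 0.841% of all tested probes fell. The median difference of the list from DMSO in log2(CPM + 2) was 0.08, 0.12, 0.13, 0.15, -0.33 and -1.09 from 0.4 to 100 µM. Single DMSO libraries had medians of -0.11 to 0.14. Fbp1, a key enzyme of gluconeogenesis, was at 179 CPM at 100 µM, against 440.3 to 642 CPM in DMSO (-1.28 ± 0.24, adjusted p = 0.017). Pfkfb1, which sets the level of a sugar phosphate that steers glycolysis, was at 17.4 CPM at 100 µM, against 61.3 to 113 CPM in DMSO (-1.70 ± 0.35, adjusted p = 0.0295). Tkfc, a kinase of fructose breakdown, changed by -1.55 ± 0.33 (adjusted p = 0.0303). The calls of Fbp1, Pfkfb1 and Tkfc were lost in 7, 8 and 9 of 26 alternatives, and all were lost without the 100 µM library.

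Of 26 tested genes of amino acid breakdown 3 fell and 0 rose, with a median of -0.71, where 0.841% of all tested probes fell. Cdo1, which oxidizes cysteine, ranged over 121 to 207 CPM in DMSO (median 176) and stood at 151, 187, 152, 133, 85.0 and 73.6 CPM from 0.4 to 100 µM (-1.26 ± 0.23, adjusted p = 0.0144). Agxt, which detoxifies glyoxylate, and Kynu, of tryptophan breakdown, changed by -1.52 ± 0.34 and -1.85 ± 0.43 (adjusted p = 0.0369 and 0.0451). The call was lost in 14 of 26 alternatives for Agxt and in 19 of 25 for Kynu, among them several that leave out 1 library, and for Cdo1 in 5 of 26. Csad, which follows Cdo1 on the way to taurine, was at 16.6 CPM at 100 µM, against 57.2 to 143 CPM in DMSO (-1.997 ± 0.38, adjusted p = 0.0174). Hao1, the oxidase that makes glyoxylate, changed by -2.21 ± 0.35 (adjusted p = 0.00888). The calls of Cdo1, Agxt, Kynu, Csad and Hao1 were all lost without the 100 µM library.

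Of 7 urea cycle genes 1, Otc, fell. Otc was at 6.69 CPM at 100 µM, against 29.6 to 49.3 CPM in DMSO (-1.75 ± 0.34, adjusted p = 0.0202), a call lost without the 100 µM library. The median difference of the list from DMSO in log2(CPM + 2) was 0.08, 0.11, 0.23, 0.19, 0.01 and -0.72 from 0.4 to 100 µM. Single DMSO libraries had medians of -0.11 to 0.21. Cps1, named after its values were seen, ranged over 212 to 304 CPM in DMSO (median 256) and stood at 324, 381, 314, 330.5, 257 and 28.3 CPM from 0.4 to 100 µM. Arg1 ranged over 1515 to 2748 CPM in DMSO (median 2368) and stood at 2168, 1985, 2371, 2525, 2197 and 374 CPM. Both were far below every control at 100 µM alone, a step that the dose score did not call (adjusted p = 0.43 for Cps1 and 0.279 for Arg1). In the same library the sum of the 12 hepatocyte markers was the lowest of all, and its part in these results was not tested. Of those markers 1, the asialoglycoprotein receptor Asgr1, fell (-1.44 ± 0.33, adjusted p = 0.0427), a call lost in 14 of 26 alternatives, and 4 fell without DMSO replicate 5. The 12 had 11 negative and 1 positive fitted changes, with a median of -0.65. Their median difference from DMSO in log2(CPM + 2) was -0.65 at 100 µM, and -0.06 to 0.03 in single DMSO libraries. Alb was at 2707 CPM at 100 µM, against 4618 to 5209.8 CPM in DMSO (-0.68 ± 0.24, adjusted p = 0.178).

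Lists of secreted and transport functions had mostly negative fitted changes and few calls. Of 28 genes of secreted plasma proteins 1, Apoh, fell (-0.70 ± 0.14, adjusted p = 0.0248), with 26 negative and 2 positive. The 10 tested genes of bile acid synthesis and transport had 10 negative changes, a median of -0.73 and 0 calls, or 2 calls without DMSO replicate 5. Slc10a2, a bile acid transporter not on that list, was at 2.23 CPM at 100 µM, against 15.5 to 28.5 CPM in DMSO (-2.28 ± 0.42, adjusted p = 0.0162). Its call was lost without the 100 µM library. The 20 tested liver transcription factors and receptors had a median of -0.52 and 0 calls, or 3 lower without DMSO replicate 5. The PXR gene Nr1i2 was at 102 CPM at 100 µM, against 163 to 247 CPM in DMSO (-0.66 ± 0.24, adjusted p = 0.201), and it was called without that control, at -0.79 (adjusted p = 0.0461).

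Cholesterol synthesis genes stood out at 33.3 µM alone. The median difference of 21 tested genes from DMSO in log2(CPM + 2) was -0.08, -0.07, -0.09, -0.09, 0.68 and -0.02 from 0.4 to 100 µM, and -0.06 to 0.13 in single DMSO libraries. Mvd, which decarboxylates mevalonate diphosphate, ranged over 13.6 to 28.5 CPM in DMSO and was at 56.3 CPM at 33.3 µM and 37.9 CPM at 100 µM (1.11 ± 0.35, adjusted p = 0.138). Acat2, which joins acetyl-CoA units, ranged over 68.7 to 91.2 CPM in DMSO and was at 172 CPM at 33.3 µM and 93.2 CPM at 100 µM (0.67 ± 0.28, adjusted p = 0.273). None of the 21 was called, while Mvd and Hsd17b7, a later enzyme of the pathway, were called without DMSO replicate 5, at 1.36 and 0.82 (adjusted p = 0.0266 and 0.0274). With 1 library at that dose the peak has no replicate.

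**Figure D5:**
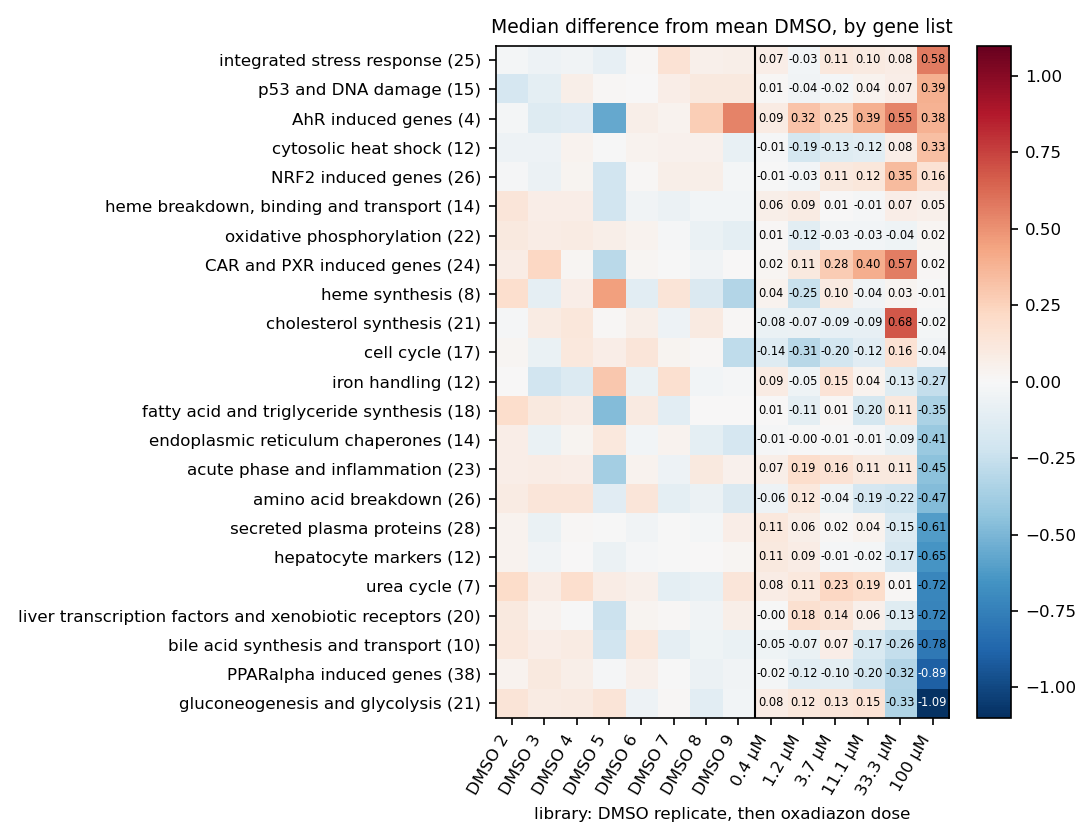
Median difference from the mean of DMSO in log2(CPM + 2) for 23 gene lists (tested genes in parentheses) in each DMSO library and at each oxadiazon dose, ordered by the value at 100 µM. The integrated stress response is at 0.58 and gluconeogenesis and glycolysis at -1.09 at 100 µM, and cholesterol synthesis is at 0.68 at 33.3 µM.

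Other lists had no or few calls. Of 26 NRF2 induced genes 1, Gsta2, rose, with a median of 0.25, and 6 rose without DMSO replicate 5, among them Nqo1 at 0.68 and Srxn1 at 0.91 (adjusted p = 0.0299 and 0.0118). Over all tested probes 0.488% rose, or 1.99% without that control. Of 15 p53 and DNA damage genes 0 were called and the median was 0.37, with Cdkn1a at -0.66 ± 0.48 (adjusted p = 0.582). Without DMSO replicate 5, 2 of these rose, Plk2 at 0.74 and Bax at 0.53 (adjusted p = 0.0345 and 0.0449). Of 22 genes of oxidative phosphorylation, 17 of the cell cycle and 12 of iron handling 0 were called, with medians of -0.12, -0.01 and -0.20.

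To see which changes set oxadiazon apart, its slope over log2(1 + dose) was compared with the mean slope of the 12 other chemicals given at the same 6 doses on plate 2. These were carbaryl, cyclanilide, cyproconazole, cyprodinil, DEHP, dichlobenil, dimethenamid, fludioxonil, PFOA, PFOS, S-Bioallethrin and triticonazole, with 86 libraries in the fit. Of 11055 probes 46 differed (0.416%), 31 higher (0.28%) and 15 lower (0.136%), by edgeR's quasi-likelihood test with Benjamini-Hochberg adjustment. The 2 fits share the oxadiazon and DMSO libraries, so their calls are not independent. The number of differences was 6 without the 100 µM library. It was 21, 30, 71, 146 and 18 without the series of carbaryl, cyprodinil, fludioxonil, cyproconazole and S-Bioallethrin.

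Among the higher differences were some drug metabolism genes. Cyp2c24 had a slope difference of 2.33 ± 0.45 at 100 µM on the log2 scale (adjusted p = 0.00372), and at 33.3 µM it was at 43.9 CPM with oxadiazon and 0.926 to 37.4 CPM with the 12 others (median 7.30). Ugt2b10 differed by 1.88 ± 0.42 (adjusted p = 0.0174), at 1583 CPM with oxadiazon at 33.3 µM and 197 to 2187 CPM with the others (median 386). Cyp1a1 differed by 2.19 ± 0.50 (adjusted p = 0.0192), at 10.97 CPM with oxadiazon at 33.3 µM and 0.265 to 20.1 CPM with the others (median 2.85). At 100 µM the highest of the others lay above oxadiazon for each of these genes. Cyp2c24 was at 21.6 CPM with oxadiazon and 0.434 to 43.5 CPM with the others (median 6.62). Ugt2b10 was at 843 and 145 to 1212 CPM (median 603), and Cyp1a1 at 14.6 and 0 to 151 CPM (median 2.71). Gsta2, Cyp3a23/3a1 and Cyp3a1 did not pass this test, with differences of 0.64 ± 0.26, 1.58 ± 0.47 and 1.46 ± 0.39 (adjusted p = 0.373, 0.123 and 0.0744).

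Csrp3 differed by 2.56 ± 0.33 (adjusted p = 2.33e-07), at 89.0 CPM with oxadiazon at 100 µM and 3.02 to 79.3 CPM with the others (median 5.57). Without the 100 µM library of oxadiazon the difference of Csrp3 was 0.76. Lcn2 differed by 1.30 ± 0.17 (adjusted p = 2.33e-07), at 1098 CPM with oxadiazon at 100 µM and 282 to 777 CPM with the others (median 383). That median lay below every DMSO library, and the difference exceeded the change of Lcn2 in the dose trend, 0.87. Cebpd, a transcription factor of the acute phase, and Hspb1, a small heat shock protein, differed by 1.17 ± 0.24 and 0.67 ± 0.13 (adjusted p = 0.00459 and 0.00372). In the dose trend Cebpd and Hspb1 changed by 0.83 and 0.47 and were not called. Ddit3 differed by 1.33 ± 0.28 (adjusted p = 0.00758), though the highest of the other series reached 1088 CPM at 100 µM, against 409 CPM with oxadiazon. Without the 100 µM library of oxadiazon the difference of Ddit3 was -0.47. LOC100911107, a locus without a role given in the sources used here, differed by 1.91 ± 0.36 (adjusted p = 0.00313), at 11.7 CPM with oxadiazon at 100 µM and 0.434 to 4.64 CPM with the others. Its change in the dose trend, 1.13, was not called. Without the 100 µM library of oxadiazon that change was -1.04 and the difference 0.35. The cholesterol synthesis genes Mvd, Acat2 and Hsd17b7 differed by 0.96 ± 0.22, 0.93 ± 0.24 and 0.63 ± 0.15 (adjusted p = 0.0204, 0.0467 and 0.0297).

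Among the lower differences were enzymes of fatty acid oxidation. Ech1 differed by -1.07 ± 0.23 (adjusted p = 0.00758), at 67.9 CPM with oxadiazon at 100 µM and 39.5 to 547 CPM with the 12 others (median 174). Hadh differed by -1.31 ± 0.32 and Acaa2, which releases acetyl-CoA at the end of the cycle, by -0.95 ± 0.23 (adjusted p = 0.0348 and 0.0297). Hsdl2, a peroxisomal dehydrogenase, differed by -0.90 ± 0.18 (adjusted p = 0.00546), and Hexim1, an inhibitor of transcription elongation, by -1.09 ± 0.23 (adjusted p = 0.00758). In the dose trend Hsdl2 and Hexim1 changed by -0.61 and -1.02 and were not called. The 12 others include PFOA, PFOS and DEHP, which as background are activators of PPARα in rat liver, and the differences of Hadh and Acaa2 missed the threshold without the PFOA series (adjusted p = 0.106 and 0.142). Cd36 did not differ past the threshold, at -0.83 ± 0.61 (adjusted p = 0.705), and the lowest of the other series at 100 µM was at 5.97 CPM. Alas1 and Ppox differed by 0.27 ± 0.28 and -0.14 ± 0.24 (adjusted p = 0.809 and 0.896).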

How the data were processed

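The authors deposited whole-number counts per probe for 192 libraries, with no sign of scaling in the values. Bowtie is the aligner named in the submitters' processing notes, and its version is not given in the sources used here. Groups, doses and plates come from the labels, which describe a log2 step although the doses lie about 3-fold apart. Every column matched a library, 0 libraries held the same values as another, and between DMSO libraries the lowest chi-square was 3.13 per degree of freedom.

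A probe was tested (11055 of 22253) where 6 or more libraries reached 1.74 CPM, which is 10 counts in a library of median depth. In R 4.3.3, edgeR 4.0.16 was run with TMM scaling, plate as a factor and its quasi-likelihood F test, with Benjamini-Hochberg adjustment over all tested probes at 0.05. CPM are scaled to the raw library total, without TMM. A list symbol read by more than 1 probe is represented by its most abundant one. Ligation products are amplified, so counts are not independent molecules. Of 21143 symbols 17302 were found in RefSeq GRCr8 with synonyms, and its promoter table covers 46 genes for 54 higher symbols and 70 for 92 lower symbols. The fits were tested on simulated data. Alternatives were DESeq2 1.42.0, its size factors, other filters, dose scores and control sets, and leaving out each library. Leaving out DMSO replicate 5 together with the 100 µM library, and replicate 5 from the difference and the library counts, was added after the data were seen.

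Genes were named by a rule: from the dose trend up to 12 calls at each end of the fitted change, from the difference up to 5 at each end (mean count 10 or more, sign kept when the 100 µM library is left out), the heme synthesis genes, up to 4 members of each list by smallest adjusted p, and a fixed panel. Not every gene it picks is described, and a few results are not reported here. The dose series, lists and tests were chosen with earlier results of these data known.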

Additional observations from a re-analysis of the deposited data

Results flagged for a closer look

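Most values that stood far from their group belonged to 1 control library. In DMSO replicate 5 Ech1 was at 149 CPM, against 175 to 197 CPM in the other 7 DMSO libraries. Urod, a heme synthesis enzyme, was at 79.6 CPM there and the haptoglobin gene Hp at 2101 CPM, above every other control. In the same library Hsp90b1 was at 4213, Herpud1 at 1470.1, Hspb1 at 248, Plg at 2145, Cebpa at 120.3, Fgfr4 at 17.0, Cdkn1a at 19.5 and C1qa at 5.91 CPM, all above the other controls, and Asgr2 at 85.2 CPM, below them. A score that summarises how this library departs from the mean of DMSO replicates 4 and 6 was 1 for it by construction. In replicates 4 and 6 the score was 0.05 and -0.05, equal and opposite by construction. It was -0.15 to 0.18 over replicates 2, 3, 7, 8 and 9. Srebf1 at 28.2 CPM in DMSO replicate 4 and Acot1 at 1.03 CPM in DMSO replicate 6 were also far from the rest. These came from 139 groups of control values, and chance alone marks about 1 group in 20.

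Oxadiazon differed from the mean of the 12 other plate 2 series in 46 probes by edgeR's test of the difference. The slope differences at 100 µM were 2.56 for Csrp3, 2.33 for Cyp2c24, 2.19 for Cyp1a1, 1.91 for LOC100911107 and 1.88 for Ugt2b10 on the log2 scale. The lower ones were -1.31 for Hadh, -1.09 for Hexim1, -1.07 for Ech1, -0.95 for Acaa2 and -0.90 for Hsdl2.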

How the results depend on the processing

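The dose trend called 147 probes, with 6 CAR and PXR list entries higher and 10 PPARα genes lower. Counts of CAR and PXR genes in this paragraph are counts of list entries. With DESeq2's Wald test 485 probes and 18 PPARα genes were called. Against the plate 2 controls alone (DMSO replicates 4, 5 and 6) the counts were 17, 3 and 2 for probes, CAR and PXR genes and PPARα genes, with DMSO replicate 1 included 4, 1 and 1, and without controls 1 CAR and PXR gene and 5 PPARα genes. A rank score for dose gave 57 probes and 5 PPARα genes, the 3 highest doses taken as 1 group 15 and 1, and a library score as a covariate 830 and 21. Leaving out 1 library at a time gave 19 to 499 probes, 3 to 7 CAR and PXR genes and 2 to 18 PPARα genes. Without both DMSO replicate 5 and the 100 µM library there were 35 probes, 10 CAR and PXR genes and 3 PPARα genes. The cause of these shifts was not tested. In the dose trend no named gene changed direction past the threshold. The difference of Ddit3 from the other series was 1.33 with all libraries and -0.47 without the 100 µM library of oxadiazon.

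The 46 differences from the other series were 160 with no filter on low counts, 16 with the rank score, 110 with the library score 6 to 47 without 1 dose and 49 without DMSO replicate 5. They were 21, 146, 30, 71 and 18 without carbaryl, cyproconazole, cyprodinil, fludioxonil and S-Bioallethrin. Probes past 4-fold numbered 0, 0, 2, 2, 7 and 47 from 0.4 to 100 µM. With 5 CPM added the 2-fold counts were 1, 9, 19 and 330 at 0.4, 1.2, 11.1 and 100 µM, and without DMSO replicate 5 they were 13 and 19 at 0.4 and 1.2 µM. No paired analysis was possible because each dose has 1 library and replicate numbers are carried by DMSO alone. With 1 library a dose, a level at a single dose has no replicate, and scarce probes are limited by counting error.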
